A study of Sus scrofa with 2 samples.

Results

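Translation initiation and elongation factor genes were examined in porcine skeletal muscle, in a messenger RNA library of pigs housed at 22 °C and another of pigs housed at 30 °C. The genes were all rows of the deposited expression table whose Ensembl pig gene identifier has a symbol that starts with EIF or EEF and a digit. The rule found 39 genes among 27987 entries, and 38 of them had a mean level of at least 1 RPKM (read counts divided by gene length and library size). The remaining gene, EIF4E1B, a cap-binding protein known from oocytes, is listed at 0 in both libraries. A further 18 symbols of the same form in the table of gene names used here, among them EEF1A2, EIF2S1, EIF3B, EIF3F, EIF4B, EIF4EBP2, EIF5A2 and EIF6, were not matched and are not analysed here. EEF1A1, EEF1G and EIF5A are not analysed here either, so the elongation factor that delivers aminoacyl-tRNA is represented by its exchange subunits only.

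The muscle was Longissimus dorsi, a long back muscle, of DLY barrows, which are castrated male crosses of Duroc boars with Yorkshire-Landrace sows. The study took 16 pigs of 79.0 ± 1.5 kg from 8 litters and kept 8 at 22 °C (control) and 8 at 30 °C (heat) for 21 days. The sources used here do not say whether a library holds RNA of 1 pig or of several, and they do not give the age of the pigs. The study's title concerns changes of muscle metabolism and structure under constant heat stress.

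Protein synthesis starts when eIF2 brings the initiator tRNA to the small ribosomal subunit, helped by eIF1 and the large eIF3 complex, and when the eIF4 proteins bring in the capped messenger RNA. Elongation then runs on eEF1, which supplies aminoacyl-tRNA, and eEF2, which moves the ribosome along. In skeletal muscle, the rate of initiation is known to be set largely by phosphorylation, of eIF2 by stress kinases and of the eIF4E repressor 4E-BP1 by mTORC1. Messenger RNA levels do not show phosphorylation or the rate of translation.

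With 1 library in each group there is no replicate error, and no difference below has a test across pigs. The effect of temperature and differences between animals or library preparations cannot be told apart. Each RPKM ratio (heat over control) is given with a 95% counting interval, computed from whole reads recovered from the deposited values, which covers counting error only. The log2 ratio is log2((heat RPKM + 1)/(control RPKM + 1)). The library totals were 23608242 reads (control) and 22863584 reads (heat), and the genes rested on at least 39 to 59043 reads per library. In RNA of whole tissue, fewer cells of a type and less RNA per cell cannot be told apart. Below, a pair of RPKM values gives the control library first and the heat library second, and a range in parentheses is the counting interval of their ratio.

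The translation factors differed little between the libraries, and most were slightly higher at 30 °C. None of the 38 genes was 1.5-fold higher or 1.5-fold lower, where 3.44% and 2.37% of all 13191 genes with a mean of at least 1 RPKM were, and none was 2-fold apart, where 0.629% and 0.584% were. The log2 ratio lay above 0 for 28 genes and below 0 for 10, while it lay above 0 for 58.8% of all genes. The median log2 ratio of the translation factors was 0.10, with a range from -0.20 to 0.30, and that of all genes was 0.05. Against the median of all genes, 24 translation factors lay above and 14 below. The translation factors together held 0.638% of the RPKM sum at 22 °C and 0.716% at 30 °C. Most of this share came from the 5 highest (EIF1, EEF2, EEF1B2, EIF4A2 and EIF4G2), without which it was 0.238% and 0.257%. The balance moved with the scaling: trimmed mean rescaling gave 22 genes above 0 and 16 below, and rescaling without the 10 highest genes 32 and 6.

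**Figure D1:**
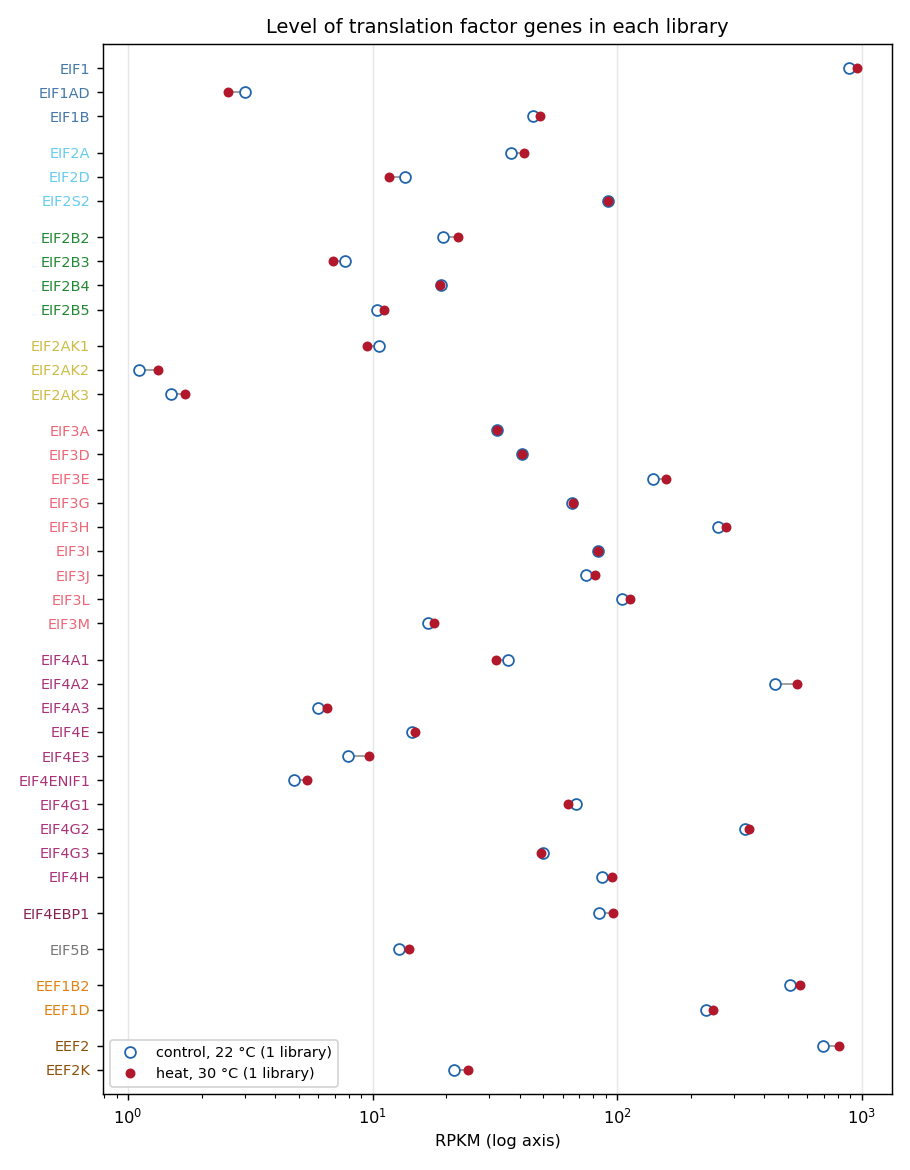
RPKM of each of the 38 translation factor genes (log axis) in the control library (open circles) and the heat library (filled circles), 1 library each, grouped by factor. The levels span from 1.11 RPKM (EIF2AK2, control) to 953 RPKM (EIF1, heat), and the circles of a gene lie close together throughout.

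At the deposited scaling, the difference exceeded counting error for 19 of the 38 genes. The RPKM ratio had a counting interval above 1 for 16 genes and below 1 for 3 (EIF2D, EIF4A1 and EIF4G1), where 20.6% and 10.6% of all genes had such intervals. Such an interval is easier to reach for a gene with many reads, so genes of like level give a closer background. Of the 9 translation factors with a mean of at least 100 RPKM, all 9 had a log2 ratio above 0 and an interval above 1, where 52.4% and 37.9% of all 536 genes at that level did. The median of the 9 was 0.11, against 0.01 for the 536 genes. Of the 22 between 10 and 100 RPKM, 14 had a log2 ratio above 0, where 56% of all 3448 genes of that level did, 7 had an interval above 1, where 25.4% did, and 3 had one below 1, where 15.8% did. Their median was 0.03, as it was for all genes of that level. Of the 7 genes below 10 RPKM, 5 had a log2 ratio above 0, where 60.2% of genes of that level did. None of the 7 had an interval that excluded 1, where 17.8% of genes of that level had one above 1 and 7.3% one below. These level classes were chosen after the values were seen. Measured against the median of all genes in place of 1, intervals lay above it for 13 translation factors and below it for 4, where 15.2% and 14.4% of all genes did. The interval calls thus depend on the scaling. Trimmed mean rescaling divides the heat values by 1.06. That exceeds lower limits such as those of EIF4G2 (1.02), EIF3L (1.03), EIF3H (1.04) and EEF1D (1.04). It also exceeds the upper limits of EIF3A (1.04), EIF4G3 (1.03), EIF2B3 (1.04) and EIF2AK1 (1.05), and narrowly that of EIF2S2 (1.0590, against 1.0591). These intervals hold 1 as deposited.

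**Figure D2:**
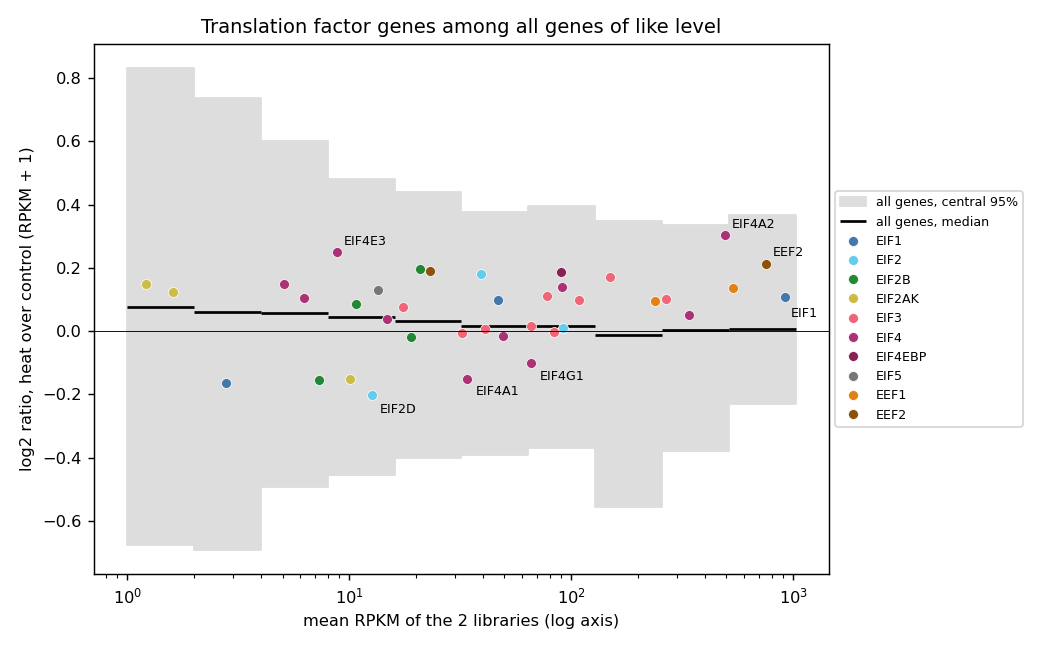
Log2 ratio (heat over control, RPKM + 1) of each translation factor gene against its mean RPKM in the 2 libraries (log axis), coloured by factor, with the median (black) and the central 95% (grey) of all genes in bins of level. All 38 translation factors lie inside the grey range of their bin, and those at 100 RPKM or more lie above 0.

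EIF1, which guards the choice of the start codon during scanning, was the most abundant translation factor. EIF1 (ENSSSCG00000017430) stood at 885 RPKM at 22 °C and 953 RPKM at 30 °C, with a ratio of 1.08 (1.06 to 1.10). Its close relative EIF1B (ENSSSCG00000011270) was at 45.2 and 48.5 RPKM, a ratio of 1.07 with an interval that holds 1 (0.966 to 1.19). EIF1 thus stood 19.6 times as high as EIF1B at 22 °C and 19.7 times at 30 °C, a comparison added after the values were seen. EIF1AD, a protein with an eIF1A-like domain, was at 3.00 and 2.57 RPKM on 47 and 39 reads, and its interval holds 1 (0.546 to 1.34). In the Sscrofa11.1 annotation EIF1AD overlaps BANF1, a chromatin protein gene at 260.2 and 324 RPKM, and the labels do not describe a strand-marking kit, so reads in the shared stretch cannot be assigned to either gene.

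The genes around eIF2 lay on both sides of 1. EIF2S2 (ENSSSCG00000026617), the beta subunit of eIF2 and the only eIF2 subunit measured, was at 91.4 RPKM at 22 °C and 92.1 RPKM at 30 °C, with a ratio of 1.01 (0.958 to 1.06). EIF2A (ENSSSCG00000011710), a separate protein that can bring initiator tRNA to the ribosome, was higher in the heat library, at 36.7 and 41.7 RPKM, a ratio of 1.14 (1.05 to 1.22). EIF2D (ENSSSCG00000015648), which can deliver tRNA without GTP and takes part in ribosome recycling, was lower. It went from 13.6 to 11.7 RPKM, with a ratio of 0.861 (0.768 to 0.965), and had the lowest log2 ratio of all translation factors, -0.20.

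The exchange factor eIF2B reloads eIF2 with GTP, and 4 of its subunits were measured at 6.86 to 22.3 RPKM. EIF2B2 (ENSSSCG00000002377), the beta subunit, was at 19.4 and 22.3 RPKM, a ratio of 1.15 (1.04 to 1.28), and overlaps ACYP1 in the Sscrofa11.1 annotation. For the other subunits the intervals hold 1. EIF2B3 (ENSSSCG00000029808), the gamma subunit, was at 7.74 RPKM at 22 °C and 6.86 RPKM at 30 °C, with a ratio of 0.886 (0.753 to 1.04). EIF2B4, the delta subunit, was at 19.1 and 18.8 RPKM, and EIF2B5, the catalytic epsilon subunit, at 10.4 and 11.1 RPKM. The median log2 ratio of the 4 was 0.03, so the subunits of 1 complex lay on both sides of the median of all genes.

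The kinases that phosphorylate eIF2 under stress were among the lowest translation factors, and none differed beyond counting error at the deposited scaling. EIF2AK1 (ENSSSCG00000007592), the haem-regulated kinase, was the highest of the 3, at 10.6 and 9.48 RPKM, a ratio of 0.890 (0.752 to 1.05). In the Sscrofa11.1 annotation EIF2AK1 overlaps AIMP2 (5.89 and 5.32 RPKM), so its value can hold shared reads. EIF2AK3, or PERK, which senses unfolded protein in the endoplasmic reticulum, was at 1.49 and 1.72 RPKM on 124 and 138 reads, a ratio of 1.15 (0.895 to 1.48). EIF2AK2, or PKR, which senses double-stranded RNA, was at 1.11 and 1.33 RPKM on 42 and 49 reads, a ratio of 1.20 (0.781 to 1.86). The interval of EIF2AK2 reaches past 1.5-fold, while those of EIF2AK1 and EIF2AK3 end short of it.

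**Figure D3:**
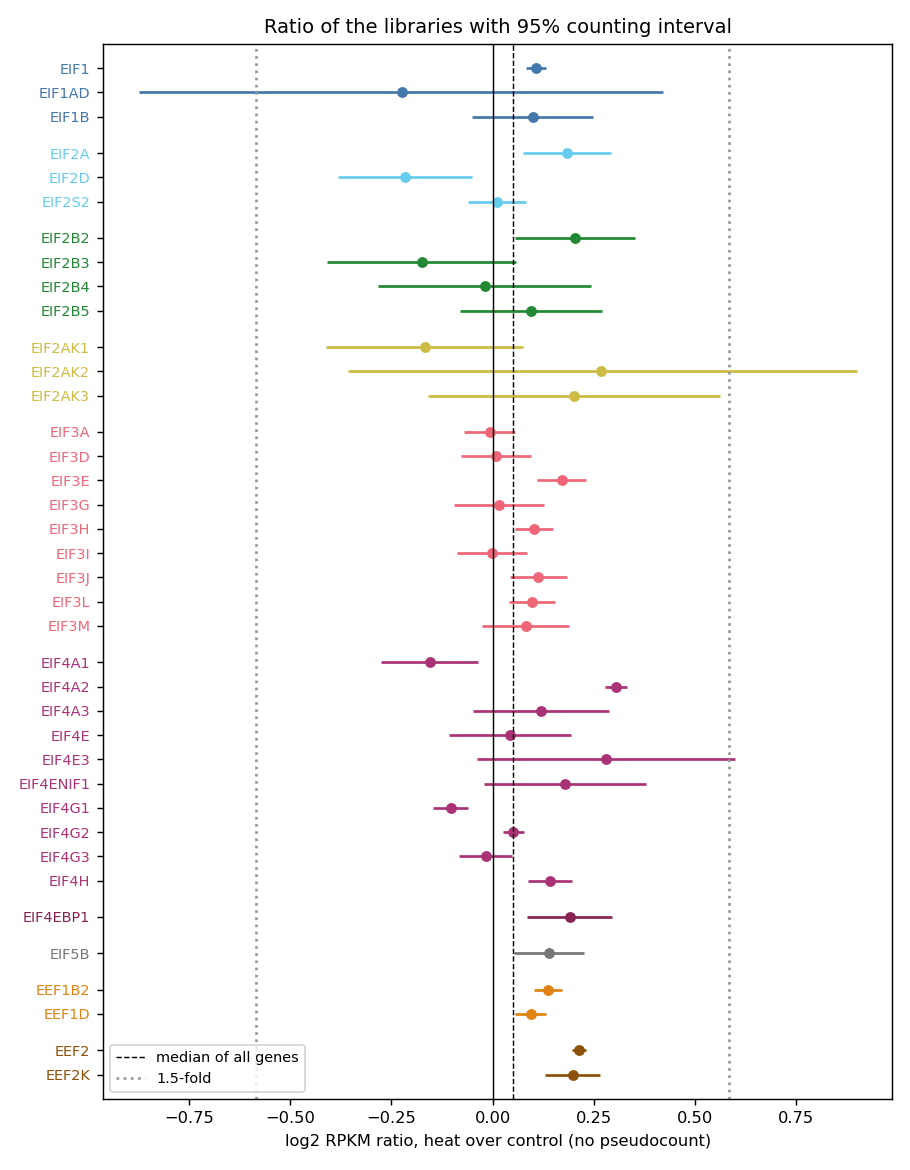
Log2 RPKM ratio of heat over control (no pseudocount) for each translation factor gene, grouped by factor, with the 95% counting interval as a line; the dashed line is the median log2 ratio of all genes (0.05, with a pseudocount of 1) and the dotted lines are 1.5-fold. The intervals of 16 genes lie above 0 and those of EIF2D, EIF4A1 and EIF4G1 below it.

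The eIF3 complex, the scaffold that holds the small subunit and the messenger RNA together, was measured through 9 subunits. Of these, 7 had a log2 ratio above 0, where 58.8% of all genes did. Against the median of all genes (0.05), 5 lay above and 4 below. The log2 ratios ran from -0.01 for EIF3A to 0.17 for EIF3E, with a median of 0.08. EIF3E (ENSSSCG00000006033) was at 140.2 RPKM at 22 °C and 158 RPKM at 30 °C, with a ratio of 1.13 (1.08 to 1.17). EIF3H, also of the core, was the most abundant subunit, at 259 and 278 RPKM, a ratio of 1.07 (1.04 to 1.11). EIF3L was at 105 and 113 RPKM (1.03 to 1.11), and EIF3J, a loosely bound subunit, at 74.8 and 80.9 RPKM (1.03 to 1.14). These 4 had intervals above 1, as did 37.9% of all genes at 100 RPKM or more and 25.4% of those at 10 to 100 RPKM. Against the median of all genes, intervals lay above it for 2 of the 9 subunits, where 15.2% of all genes had such intervals.

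The other eIF3 subunits were nearly level. EIF3A, the largest subunit and the core scaffold, was at 32.3 and 32.1 RPKM, a ratio of 0.995 (0.952 to 1.04). EIF3I was at 83.6 RPKM in both libraries, EIF3D, which can bind the cap, at 40.8 and 41.0 RPKM, and EIF3G, an RNA-binding subunit, at 65.4 and 66.1 RPKM. EIF3M was at 16.9 and 17.9 RPKM, the lowest level of the complex. Although the proteins form 1 complex, the length-scaled levels of its messenger RNAs spanned 15.3-fold at 22 °C and 15.5-fold at 30 °C. EIF3H, EIF3E and EIF3L were the 3 highest and EIF3M the lowest in both libraries.

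The eIF4 proteins carried both the highest ratio and 2 of the 3 genes with an interval below 1. EIF4A2 and EIF4A1 encode near-identical RNA helicases that unwind messenger RNA leaders. EIF4A2 (ENSSSCG00000011803) went from 440.3 RPKM in the control library to 544 RPKM in the heat library, with a ratio of 1.24 (1.21 to 1.26) and the highest log2 ratio of all translation factors, 0.30. EIF4A1 (ENSSSCG00000017957) went the other way, from 35.7 to 32.0 RPKM, with a ratio of 0.898 (0.826 to 0.976). EIF4A2 was therefore 12.3 times as high as EIF4A1 at 22 °C and 17.0 times at 30 °C. That ratio of helicases, which no rescaling of a library can change, was 1.38 times as high in the heat library, with an exact conditional counting interval of 1.26 to 1.50. The sources used here do not say how reads that match both genes were counted, so the split between them is uncertain. EIF4A2 overlaps RFC4, a replication factor gene at 4.15 and 5.35 RPKM, in the Sscrofa11.1 annotation. EIF4A3, the related helicase of the exon junction complex, was at 5.97 and 6.49 RPKM with an interval that holds 1 (0.968 to 1.22).

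The genes of the eIF4G scaffold family also differed in ratio, by less. EIF4G1 (ENSSSCG00000030255), the main scaffold, was at 67.9 RPKM at 22 °C and 63.2 RPKM at 30 °C, with a ratio of 0.931 (0.903 to 0.959). EIF4G3, its paralog, was at 49.6 and 49.0 RPKM, a ratio of 0.988 (0.944 to 1.03). EIF4G2 (ENSSSCG00000013405), or DAP5, which lacks the site for eIF4E and serves initiation without the cap-binding protein, was the most abundant of the 3, at 334 and 346 RPKM, a ratio of 1.04 (1.02 to 1.05). EIF4G2 stood 4.92 times as high as EIF4G1 at 22 °C and 5.47 times at 30 °C, a change of 1.11 times (1.07 to 1.15). EIF4G3 stood at 0.730 and 0.775 times the level of EIF4G1, a change of 1.06 times (1.01 to 1.12). With trimmed mean rescaling the log2 ratio of EIF4G2 turned to -0.03, and centred on the median of all genes it was 0.00095. Of the 3 intervals, 0 lay above the median of all genes and 2 below it.

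The cap-binding protein and its regulators were less abundant, apart from the repressor. EIF4E (ENSSSCG00000028420), which binds the cap, was at 14.5 and 14.9 RPKM, a ratio of 1.03 (0.928 to 1.14), and its log2 ratio turned below 0 when centred on the median of all genes. EIF4E3 (ENSSSCG00000011516), a relative of EIF4E, was at 7.94 and 9.63 RPKM, a ratio of 1.21 that rests on at least 154 and 181 reads, with an interval that holds 1 (0.974 to 1.51). EIF4EBP1 (ENSSSCG00000022301), the repressor 4E-BP1 that mTORC1 inactivates, was higher in the heat library, at 84.4 and 96.2 RPKM, a ratio of 1.14 (1.06 to 1.23). EIF4EBP1 thus had a higher length-scaled level than EIF4E in both libraries. EIF4ENIF1, the transporter of eIF4E that also holds silent messenger RNAs, was at 4.76 and 5.39 RPKM, with an interval that holds 1. EIF4H, which stimulates eIF4A, was at 86.8 and 95.7 RPKM, a ratio of 1.10 (1.06 to 1.15). EIF5B, the GTPase that joins the ribosomal subunits, was at 12.9 and 14.1 RPKM, a ratio of 1.10 (1.04 to 1.17).

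All 4 elongation genes measured, the kinase EEF2K among them, were higher in the heat library, with intervals above 1. Such intervals were found for 37.9% of all genes at 100 RPKM or more and 25.4% of those at 10 to 100 RPKM, the class of EEF2K. EEF2 (ENSSSCG00000025675), the translocase, was at 697 RPKM at 22 °C and 808 RPKM at 30 °C, with a ratio of 1.16 (1.15 to 1.17) on 52588 and 59043 reads. EEF2K (ENSSSCG00000007839), the kinase that inhibits eEF2, had a ratio of 1.15 (1.09 to 1.20), at 21.5 and 24.7 RPKM. The factor and its inhibitory kinase thus lay close to each other in ratio, 0.21 and 0.19 on the log2 scale. EEF1B2 (ENSSSCG00000016128), an exchange subunit that reloads eEF1A with GTP, was at 509.5 and 560.2 RPKM, a ratio of 1.10 (1.07 to 1.13). EEF1D (ENSSSCG00000006954), another exchange subunit, was at 230.3 and 246 RPKM, a ratio of 1.07 (1.04 to 1.10). All 4 stayed above 0 under the 3 rescalings run, with EEF1 medians from 0.033 to 0.16 and EEF2 medians from 0.12 to 0.24 across them. With the trimmed mean, EEF1D was close to 0, at 0.012. The messenger RNAs of EEF2, EEF1B2, EEF1D, EIF3E and EIF3H are known to belong to the class with a terminal oligopyrimidine tract, whose translation mTORC1 controls.

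Other genes of translation and its control were read from 7 lists, of which several were matched only in part. For comparison, 58.8% of all genes lay above 0, and their median was 0.05. Of 22 measured genes of mTORC1 and its upstream regulators (33 listed), 12 lay above 0 and 10 below, with a median of 0.03. Against the median of all genes, 9 lay above and 13 below, and none was 1.5-fold apart. SESN1, a sestrin that restrains mTORC1 when amino acids are short, was the highest, at 35.0 and 49.2 RPKM (1.26 to 1.57). LAMTOR2, part of the lysosomal anchor of mTORC1, was the lowest, at 16.8 and 13.4 RPKM (0.709 to 0.899). MTOR itself was at 7.27 and 7.49 RPKM (0.961 to 1.11), named after its value was seen.

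Among 15 measured genes of other regulators that bind messenger RNA or act in initiation (19 listed), 10 lay above 0, with a median of 0.04. PABPC1, the poly(A)-binding protein, was the highest, at 58.4 and 75.7 RPKM (1.24 to 1.36). MKNK2, a kinase of eIF4E, was the lowest, at 80.8 and 70.4 RPKM (0.783 to 0.968). Genes of the integrated stress response, which runs through eIF2 phosphorylation, had a median of 0.25 over 9 measured genes of 16 listed. Of the 9, 6 lay above 0 and 5 above the median of all genes. The list mixes regulators of that phosphorylation, such as GCN1 and DNAJC3, with downstream genes, so its median does not measure downstream output. ATF4, DDIT3 and TRIB3 are not analysed here. ATF3 was the highest, at 52.7 and 84.7 RPKM (1.49 to 1.73), while ATF5 was the lowest, at 9.40 and 6.18 RPKM (0.554 to 0.779). The median of that list was 0.0043 over members with a mean of at least 5 RPKM. This filter leaves out IMPACT (4.07 and 5.44 RPKM) and PPP1R15B (3.74 and 4.93 RPKM), so the median of 0.25 depends on these low-level genes.

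Of 7 measured termination and ribosome recycling genes (8 listed), 5 lay above 0, where 58.8% of all genes did, and 5 above the median of all genes (0.05). The 7 genes had a median of 0.08. They ran from TRMT112 (48.6 and 44.2 RPKM, 0.803 to 1.03) to N6AMT1, at 0.784 and 2.02 RPKM with a wide interval that holds 1 (0.423 to 27.1). Elongation partners outside the symbol rule had a median of -0.02 over 6 genes of 14 listed, with 2 above 0 and 1 above the median of all genes. They ran from SECISBP2 (7.28 and 6.62 RPKM, 0.782 to 1.06) to DPH1, of diphthamide synthesis on eEF2 (6.24 and 7.92 RPKM, 1.02 to 1.58). Cytosolic aminoacyl-tRNA synthetases and their partners, which charge the tRNAs, had 9 of 18 measured genes above 0 (22 listed). Against the median of all genes, 4 lay above and 14 below. Intervals lay below 1 for 5 of the 18 and above 1 for 2, where 10.6% and 20.6% of all genes had such intervals. The list ran from CARS1 (3.95 and 3.11 RPKM, 0.644 to 0.962) to LARS1 (9.97 and 12.6 RPKM, 1.15 to 1.38). Mitochondrial translation factors had 4 of 8 above 0 (10 listed), 4 above the median of all genes, and a median of 0.02. The list ran from TUFM, the mitochondrial elongation factor Tu (34.2 and 30.7 RPKM, 0.832 to 0.966), to MTRFR, a rescue factor of stalled ribosomes (3.06 and 6.59 RPKM, 1.50 to 3.13). Of the 84 different genes measured in the 7 lists, 3 (3.57%) were at least 1.5-fold higher at 30 °C when 1 was added to each RPKM value (ATF3, N6AMT1 and MTRFR), near the 3.44% of all genes. None was 1.5-fold lower on that scale, where 2.37% of all genes were, while ATF5, with an RPKM ratio of 0.657, was past 1.5-fold without the pseudocount.

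**Figure D4:**
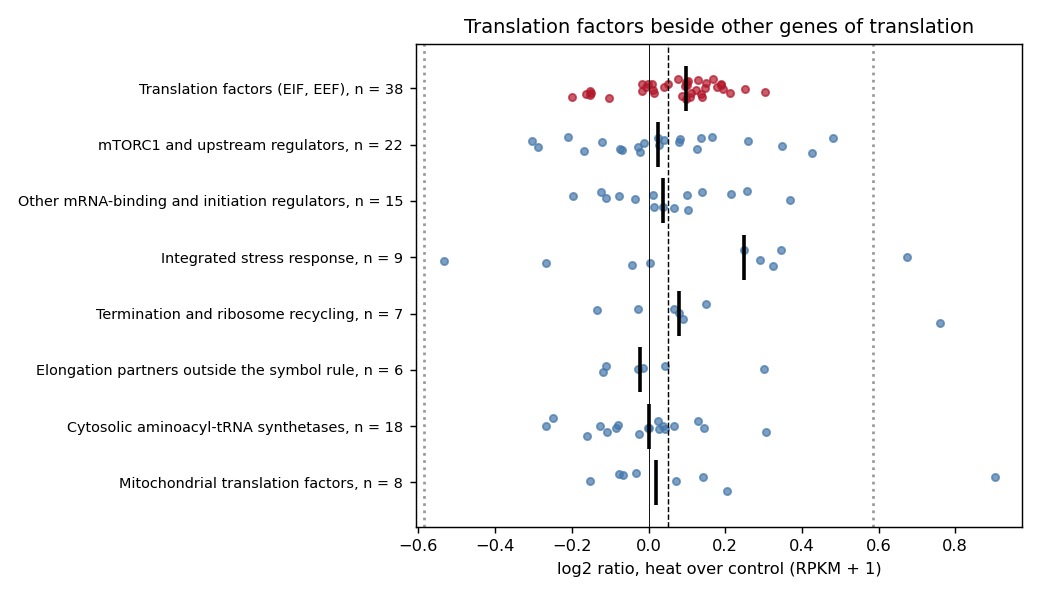
Log2 ratio (heat over control, RPKM + 1) of the 38 translation factors (red) and of the measured genes of 7 other translation lists (blue), with list medians as black bars, the median of all genes dashed and 1.5-fold dotted; points are spread vertically for legibility. The translation factors span -0.20 to 0.30. The integrated stress response has the highest list median, 0.25, which is 0.0043 over its members with a mean of at least 5 RPKM.

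The tissue label was read against marker genes. Skeletal muscle markers were matched for 9 of 15 genes, all above 100 RPKM, with ACTA1 at 68749 and 65219 RPKM, and their summed level was 143727 RPKM in the control library and 137845 RPKM in the heat library. The median log2 ratio of these 9 was -0.08, with 4 above 0 and 5 below. Summed levels of other cell types were far lower. They were 975 and 881 RPKM for fibroblasts (8 of 10 matched), 182 and 175 RPKM for adipocytes (6 of 10), 153 and 170.0 RPKM for endothelium (6 of 10), and 105 and 114 RPKM for smooth muscle and pericytes (5 of 8). Red blood cell markers summed to 89.5 and 113 RPKM (3 of 6), macrophage markers to 27.5 and 29.7 RPKM (5 of 9), Schwann cell markers to 21.2 and 17.3 RPKM (2 of 6) and lymphocyte markers to 6.98 and 7.97 RPKM (7 of 9). A few abundant genes carry most of these sums, so single markers are read too. For comparison, 10.6% of all genes had an interval below 1 and 20.6% one above 1. These shares were 15.8% and 25.4% at 10 to 100 RPKM, and 33.2% and 37.9% at 100 RPKM or more. Fibroblast markers had a median log2 ratio of -0.14, with intervals below 1 for 5 of 8 genes and above 1 for none. Smooth muscle and pericyte markers had a median of -0.18, with intervals below 1 for 3 of 5, while ACTA2 (52.0 and 67.9 RPKM) was higher. Adipocyte markers had a median of -0.12, with intervals below 1 for 3 of 6 and above 1 for 1. Those below include the lipid droplet genes CIDEC (7.56 and 3.48 RPKM) and PLIN1 (10.1 and 6.64 RPKM, on at least 75 and 48 reads). The 1 above is PLIN4 (33.7 and 39.6 RPKM, 1.12 to 1.23), and CFD was at 123 and 119 RPKM. Both measured Schwann cell markers had intervals below 1. Endothelial markers had a median of 0.04, with intervals above 1 for 2 of 6 and below 1 for none. Intervals lay above 1 for 2 and below 1 for 1 of 5 macrophage markers, above 1 for 1 and below 1 for 1 of 4 measured lymphocyte markers, and above 1 for HBB, the only red blood cell marker with a mean of at least 1 RPKM. No matched marker is listed at 0 in both libraries. The part of these differences in the translation factor values was not tested.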

How the data were processed

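The authors deposited a table of RPKM values, with a column for each library named as in the sample titles. The submitters' processing notes list Bowtie, TopHat 1.4.0, Cufflinks 1.3.0 and the build Sscrofa10.2 without saying what each was used for. Which program counted reads, what was done with reads of several matches and which gene lengths were used are points not given in the sources used here. Libraries held poly(A) RNA from 3 µg of total RNA after 10 cycles of PCR, per the labels.

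Whole reads were recovered from the RPKM values. The library totals were taken as the largest for which most gene lengths came out whole (71.3% of 300 genes scanned). The smallest length up to 30000 bp that makes both read numbers whole was then found for every entry, which succeeded for 100% of 21398 entries above 0. These reads are minimum numbers, since a factor common to reads and length cannot be seen, and they sum to 90.3% and 90.4% of the totals. Clopper-Pearson 95% intervals of the RPKM ratio, and exact conditional intervals for ratios of paralogs, rest on these minimum numbers, which can make them too wide. The reads carry no molecular identifiers, so PCR copies count as separate reads.

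Symbols came from a table of gene names that matched 11374 entries, and overlaps of genes from RefSeq's Sscrofa11.1, whose coordinates are not given because the build differs. The genes, lists and rules were chosen with earlier results of these data known. All members are named. Full values were given for the 3 highest and 3 lowest log2 ratios at a mean of at least 5 RPKM, the 5 most abundant and the paralog pairs, and of each translation list the highest and the lowest member. No gene was 1.5-fold apart, so that part of the rule named none. The planned ratios of EEF1A2 to EEF1A1 and of EIF5A2 to EIF5A and the EIF6 group were not computed, as these genes were not matched. Alternatives covered pseudocounts of 0.1 and 5, the filter, rescaling, summed entries, a 2-fold threshold, regulators left out and, added after seeing the data, overlapping genes left out. The steps were tested on simulated reads. Python 3.11.15, numpy 2.4.6, pandas 2.3.3 and scipy 1.17.1 were used.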

Additional observations from a re-analysis of the deposited data

How the results depend on the processing

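No paired analysis was possible because there is 1 library per group, and no library could be left out. In the alternatives that recount folds, no translation factor was 1.5-fold apart. The number above 0 lay between 22 and 32 with other pseudocounts, filters and scalings. The 3 rescalings shifted all genes by -0.08 (trimmed mean), -0.05 (centring) and 0.04 (without the 10 highest genes) on the log2 scale. The count below 0, 10 as deposited, became 16 with the trimmed mean and 6 without the 10 highest genes. With centring the EEF1 median was 0.066 and the EEF2 median 0.15, they were 0.033 and 0.12 with the trimmed mean, and 0.16 and 0.24 when the 10 highest genes were left out of the scaling. The EIF2 median (EIF2A, EIF2D and EIF2S2) was -0.071 with the trimmed mean. These moves follow from the shift of all genes. Single translation factors changed side of 0 in 4 cases with centring, 6 with the trimmed mean and 4 without the 10 highest genes. Leaving out the 10 genes that overlap another gene gave 21 above 0, 7 below and a median of 0.10. These are EIF1AD, EIF1B, EIF2AK1, EIF2B2, EIF2B3, EIF2S2, EIF3G, EIF4A2, EIF4E3 and EIF5B. The translation factors' share of summed RPKM was 0.998% (control) and 1.13% (heat) without the 10 highest entries. The counts of all genes 1.5-fold higher and lower came to 934 and 565 at pseudocount 0.1, 53 and 59 at pseudocount 5, 785 and 482 with no filter, and 97 and 69 at a mean of at least 5 RPKM. Those at 2-fold came to 290 and 193 at pseudocount 0.1, 7 and 20 at pseudocount 5, and 17 and 26 at a mean of at least 5 RPKM. In the other translation lists, 1 gene was 1.5-fold higher with a pseudocount of 5 and 1 at a mean of at least 5 RPKM, while 1 was 1.5-fold lower with a pseudocount of 0.1 and 1 with the trimmed mean. The integrated stress response median was 0.0043 at a mean of at least 5 RPKM, which leaves out IMPACT and PPP1R15B. Depth limits EIF1AD, EIF2AK2 and EIF2AK3 most.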
